A study of Mus musculus with 15 samples.

Results

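Integrins, laminins, syndecans and their partners in basement membrane were followed here as 1 group of 43 genes, read by 104 of the 56605 probes of a mouse array. They were chosen by gene name, as the array lists it. RNA was measured on 1-colour arrays in 15 samples that form 5 groups of 3. Activated pancreatic stellate cells (PSC), the matrix-producing cells of the pancreas, came from heterozygous mice (PSC HT) or wild-type mice (PSC WT) and had been in culture for 2 weeks. Mouse pancreatic cancer cells had spent 24 h in medium conditioned by PSC of heterozygous mice (HT PSC medium), in medium conditioned by PSC of wild-type mice (WT PSC medium) or in control medium (control). The labels used here do not name the heterozygous locus or the cancer cell line. Whether the 3 replicates of a group come from separate animals or cultures is not given either, so a p-value reflects the variation among these samples and that variation could be technical.

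Integrins are cell surface receptors made of an alpha and a beta chain, and the pairing decides whether they bind collagen, laminin, or fibronectin and other ligands with an RGD motif. Laminins are trimers of an alpha, a beta and a gamma chain that assemble into basement membrane together with nidogens, perlecan (Hspg2) and agrin (Agrn). Syndecans carry heparan sulfate and act beside integrins, while dystroglycan (Dag1), Cd44 and the discoidin receptors (Ddr1, Ddr2) bind matrix without being integrins.

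A level below is the log2 signal of a gene's brightest probe relative to the 75th percentile of its array, so 0 is the level of that percentile and levels of different genes are not set against each other. A difference is a log2 fold change ± SE with n = 3 arrays per group, and a gene passed when limma's Benjamini-Hochberg adjusted p over all genes tested was under 0.05. A gene was tested where its probe was well above background on every array of at least 1 group. Per array, 54.3% to 63.8% of spots were well above background and none was saturated. RNA was labelled through double-stranded cDNA, so a transcript and its antisense partner cannot be told apart. In these bulk samples fewer cells of a type and less RNA per cell cannot be told apart either.

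Of the 43 genes, 13 had a single probe and 30 had several, up to 6. By their mm9 coordinates 14 probes cover more genome than their 60 bases and so cross an intron. The 5 probes printed here are examples from genes whose probes are compared below, and they are given 5′ to 3′ with no base marked. Other probes compared below are not printed. For Itga6, the integrin chain that pairs with Itgb4 to bind laminin, the first crosses an intron at chr2:71683882-71684032 (mm9, plus strand) and carries a RefSeq accession. The second lies in 1 piece at chr2:71690633-71690692 and carries an Ensembl transcript. The Itga3 probe lies at chr11:94915485-94917062 (minus strand), the Lamc1 probe at chr1:155077970-155078896 (minus strand) and the Lamb3 probe at chr1:195167088-195169619 (plus strand), each across an intron.
Itga6, A_65_P04508: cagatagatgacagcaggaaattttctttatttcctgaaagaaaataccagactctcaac
Itga6, A_55_P1958840: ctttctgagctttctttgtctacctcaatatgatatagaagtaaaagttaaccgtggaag
Itga3, A_51_P230405: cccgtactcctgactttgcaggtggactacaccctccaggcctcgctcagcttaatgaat
Lamc1, A_66_P130669: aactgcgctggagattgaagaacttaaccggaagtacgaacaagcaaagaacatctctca
Lamb3, A_51_P223656: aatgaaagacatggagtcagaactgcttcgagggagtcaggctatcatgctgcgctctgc

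Promoter windows of RefSeq (GRCm38.p6, 250 bases before to 50 after a start) were found for 31 of the 43 genes. Those of Lamb3, which was lower in PSC WT than in cancer cells, at chr1:193301993-193302292, and of Itga11, which was higher, at chr9:62677605-62677904, are shown, both on the plus strand. Capitals mark CAGGTG on either strand, the E-box that Snail and Zeb repressors bind, which occurred in 9 of the 39 windows of these genes (23.1%) and in 20.2% of all 32851 windows. Only windows that carry CAGGTG were printed, so those of Lamb3 and Itga11 do not stand for the other genes. A match is a run of letters and not a site of binding, and its part in the differences was not tested.
Lamb3: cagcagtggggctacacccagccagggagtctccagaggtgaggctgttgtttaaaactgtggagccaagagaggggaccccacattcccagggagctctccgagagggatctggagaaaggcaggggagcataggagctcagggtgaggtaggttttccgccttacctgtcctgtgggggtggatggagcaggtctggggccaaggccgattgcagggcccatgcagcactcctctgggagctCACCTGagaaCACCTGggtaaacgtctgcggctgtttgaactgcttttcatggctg
Itga11: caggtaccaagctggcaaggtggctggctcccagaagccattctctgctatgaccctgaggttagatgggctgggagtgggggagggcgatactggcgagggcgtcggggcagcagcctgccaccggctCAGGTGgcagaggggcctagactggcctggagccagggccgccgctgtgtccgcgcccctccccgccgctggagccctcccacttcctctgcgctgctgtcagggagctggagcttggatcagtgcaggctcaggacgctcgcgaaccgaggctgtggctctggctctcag

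PSC WT and cancer cells in control medium carried different sets of matrix receptors and laminin chains. PSC WT were higher in the fibroblast collagen receptor Itga11, in Ddr2, in the laminin chains Lama1, Lama2 and Lama4, and in the fibronectin receptor chain Itga5. They were lower in the epithelial chains Itga6 (by its brightest probe), Itgb4 and Itgb6 and the laminin chains Lama3 and Lamb3. Ddr1, also an epithelial gene, was higher in PSC WT. Of 42 members tested, 38 (90.5%) passed, 25 higher and 13 lower in PSC WT, beside 71.4% of all 21928 genes tested, 36.1% higher and 35.2% lower. The groups did not overlap for 39 members, beside 75.6% of all genes. The members' median difference was 1.43, and 0.04 over all genes. Of the 42, 28 were well above background on all 6 arrays and 24 of those passed. The other 14 entered through the group where they were bright, so their passing was in part set by that filter.

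For a gene that no array of 1 group showed well above background, "at least" sets the other group's mean against the higher of each dim array's detection limit and its own reading. Itga11 stood at 6.83, 6.74 and 6.86 in PSC WT, against -6.12, -6.58 and -6.46 in control, at least 5260-fold higher (adjusted p = 1.02e-08). Ddr2, a collagen receptor tyrosine kinase of mesenchymal cells, stood at 3.55, 3.70 and 3.61 in PSC WT and at -6.58, -7.29 and -6.84 in control, at least 577-fold higher. Every PSC array lay above every cancer cell array for both collagen receptors. Among other collagen-binding chains, Itga2 was lower in PSC WT, at -6.49, -6.68 and -7.82, against -0.12, -0.19 and -0.36 in control, at least 45.0-fold (adjusted p = 3.85e-06). Itga10 rose by 2.73 ± 0.15, and Itga1 had 0.16 ± 0.12 (adjusted p = 0.242). Ddr1, the epithelial counterpart of Ddr2, stood at 4.07, 4.08 and 4.01 in PSC WT and at 3.02, 2.80 and 2.78 in control, higher by 1.19 ± 0.10.

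The laminin-binding integrins divided. Itga6 stood at 2.28, 2.15 and 2.19 in PSC WT, against 5.98, 5.85 and 5.79 in control, and fell by 3.67 ± 0.09 on the log2 scale (adjusted p = 1.5e-07). Itgb4, which joins Itga6 in the hemidesmosome, stood at -1.06, -0.98 and -1.07 in PSC WT, against 3.42, 3.33 and 3.12 in control, and fell by 4.33 ± 0.10. Neither pair of groups overlapped. Itga3 was also lower in PSC WT (-1.94 ± 0.14), while Itga7, best known from muscle, was higher (2.77 ± 0.13).

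Of the RGD-binding chains, 7 of 8 were higher in PSC WT, beside 36.1% of all genes. Itga8, Itgb8 and Itga2b entered the test through PSC WT alone, and Itgb6 through control alone. Itga5 stood at 3.66, 3.52 and 3.36 in PSC WT and at -1.46, -1.79 and -1.85 in control, a rise of 5.21 ± 0.14. Itga8 stood at 0.66, 0.80 and 0.74 in PSC WT, against -8.06, -7.90 and -7.46 in control, at least 78.0-fold higher. Itgav, the chain shared by several of these receptors, stood at 5.20, 4.98 and 5.03 in PSC WT and at 4.48, 4.52 and 4.31 in control, a rise of 0.63 ± 0.10. With arrays scaled on their median, which moves every difference of this comparison by -0.39, Itgav had 0.24 (adjusted p = 0.164). Under that scaling 36 members passed, 22 higher and 14 lower, a count without the share of all genes beside it. The exception was Itgb6, an epithelial chain that takes part in activating TGF-beta, which stood at -6.40, -8.24 and -7.69 in PSC WT and at -0.80, -0.97 and -0.85 in control, at least 28.7-fold lower. Itgb8, which also activates TGF-beta, was at least 5.91-fold higher, Itgb5 rose by 1.96 ± 0.09 and Itgb3 by 0.58 ± 0.09. Itga2b, a platelet chain, was higher too, at -4.35, -4.67 and -4.31 in PSC WT, against -5.61, -6.62 and -6.11 in control (adjusted p = 0.00108), but only 1 of the 3 control arrays had it well above background.

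Itgb1, the beta chain shared by most of these receptors, stood at 7.04, 6.69 and 6.76 in PSC WT and at 4.99, 4.97 and 4.81 in control, higher by 1.91 ± 0.12. Itga9 was at least 77.8-fold higher in PSC WT, at 0.67, 0.76 and 0.75 against -8.00, -7.83 and -7.58 in control. Itgb7, a leukocyte chain, was lower in PSC WT, at -5.07, -4.90 and -5.07 against -2.27, -2.31 and -2.52 in control (-2.65 ± 0.11). Itga4, a leukocyte chain, could not be tested, since no group had it well above background on all arrays.

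Laminin chains were found on both sides. Lamb3 was at -5.40, -4.83 and -5.03 in PSC WT, of which 2 arrays were well above background, against 2.43, 2.16 and 2.17 in control (-7.34 ± 0.17). Lama3 was at -7.85, -6.21 and -7.86 in PSC WT, not well above background, and at -3.51, -3.60 and -3.52 in control, at least 4.5-fold lower. Both are known as chains of epithelial laminin. Lama1 was at 3.77, 3.89 and 3.81 in PSC WT and at -7.81, -7.68 and -7.41 in control, at least 665-fold higher. Lama4, a chain of vessel and fat basement membrane, was at 1.30, 1.39 and 1.30 in PSC WT, against -7.41, -6.66 and -6.55 in control, at least 118-fold higher. Lama2, known for its place in muscle, was at 0.94, 0.91 and 0.95 in PSC WT, against -7.94, -7.51 and -6.41 in control, at least 89.8-fold higher. Lamb1 rose by 1.74 ± 0.10 and Lamc3 by 1.95 ± 0.09, Lama5 fell by 1.10 ± 0.19, and Lamb2 and Lamc1 did not pass (adjusted p = 0.115 and 0.0718).

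Other basement membrane genes were higher in PSC WT, with Nid2 at 6.91 ± 0.17, Nid1 at 2.36 ± 0.09 and Hspg2 at 1.98 ± 0.18, apart from Agrn, which was lower by 2.49 ± 0.14 on the log2 scale. Sdc2, a mesenchymal syndecan, stood at 3.16, 3.25 and 3.07 in PSC WT, against -7.90, -7.74 and -7.53 in control, at least 420-fold higher. Sdc3 rose by 4.68 ± 0.08. Sdc1, the epithelial syndecan, stood at 1.77, 1.93 and 1.86 in PSC WT and at 3.21, 3.02 and 3.04 in control, and fell by 1.24 ± 0.10. Sdc4 had -0.22 ± 0.10 (adjusted p = 0.0991). Dag1 had 0.51 ± 0.12 (adjusted p = 0.00917). Cd44, a hyaluronan receptor, was at 3.08, 2.70 and 2.68 in PSC WT and at 3.72, 3.36 and 3.34 in control (-0.65 ± 0.16, adjusted p = 0.00912).

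Genes that work with the members were mostly higher in PSC WT too, beside 36.1% of all genes higher and 35.2% lower. Of 32 genes of the integrin adhesion machinery tested, 23 were higher and 8 lower, with a median of 1.18, and the kindlins went opposite ways, Fermt2 higher by 4.24 ± 0.16 and Fermt1 at least 70.4-fold lower. Of 15 hemidesmosome and dystroglycan partners, 12 were higher and 1 lower (median 1.15). Of 25 ligands and heparan sulfate genes, 20 were higher and 3 lower (median 1.79), with the ligand tenascin C (Tnc) at least 143-fold higher and osteopontin (Spp1) lower by 4.53 ± 0.11 on the log2 scale.

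The labels were checked against marker genes beside these values. All 11 stellate and myofibroblast markers were higher in PSC WT than in control, and all 9 epithelial markers tested were lower. All 11 macrophage markers were also well above background in PSC WT, with a summed linear level of 18.9 to 30.5, against 6 of 11 and 15.7 to 18.1 in control. Of the 11, 8 were higher in PSC WT and 2, Cd14 and Fcgr3, were lower. Cd14 read 3.44 to 3.51 in control and -0.84 to -0.69 in PSC WT. Lyz2 read 3.2 to 4.28 in PSC WT and was not well above background in control. All 5 endothelial markers tested were higher in PSC WT, with sums of 1.18 to 1.34, against 0.119 to 0.155 in control. Of 6 mesothelial markers, 5 were higher and 1, Msln, was lower. Of 5 Schwann cell markers tested, 1 was higher and 2 were lower. The part of these cell types and of macrophages in the members' differences was not tested. For 34 of the 38 members that passed, the 6 PSC arrays and the 9 cancer cell arrays did not overlap at all. The exceptions were Cd44, Dag1, Itga2b and Itgb3. The same count was not made over all genes. PSC WT and control arrays also chose the 38, so their separation was in part built in.

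**Figure D1:**
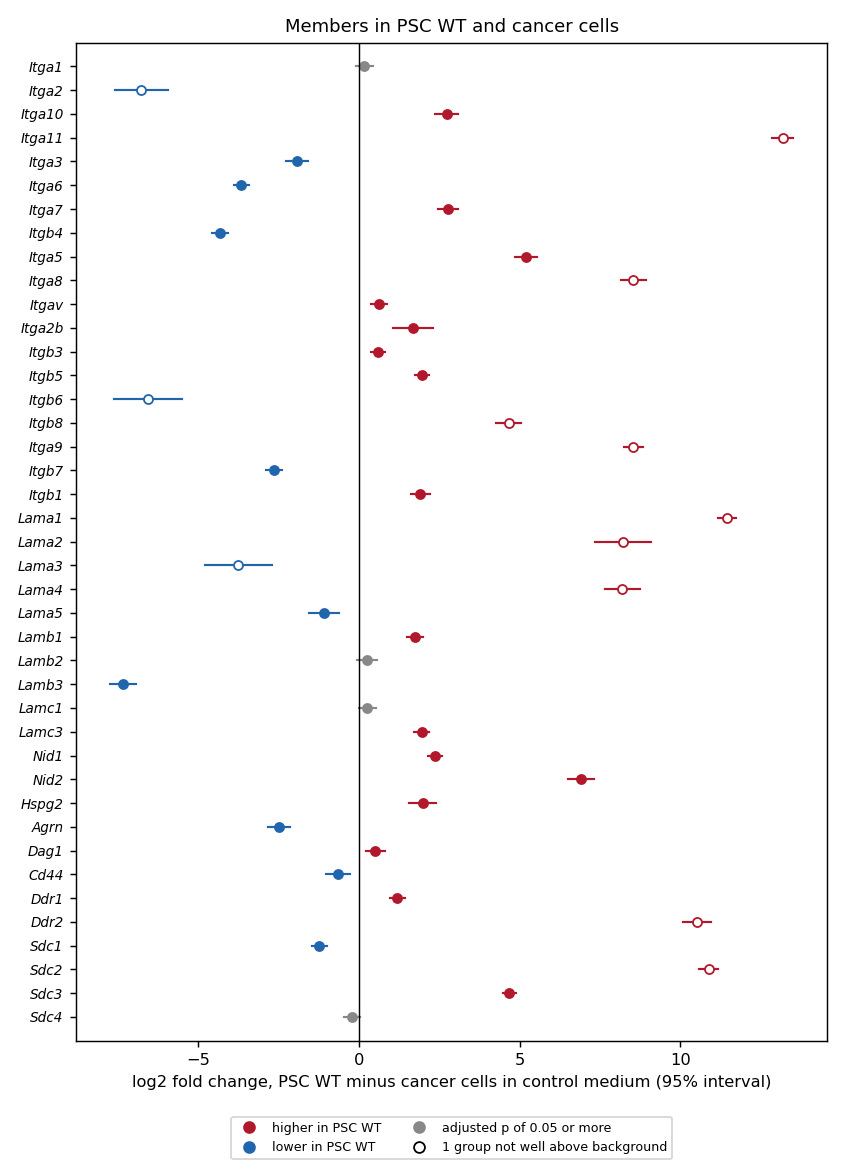
Log2 fold change of tested members, PSC WT minus cancer cells in control medium (points), with limma's 95% intervals (lines), ordered by role. Open points are genes that were not well above background in 1 group, whose fitted difference is no bound. Itga11 and Lama1 lie to the right of 0 as open points, and Lamb3 lies to the left of 0.

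Probes of 1 gene disagreed in direction for a few members. For Itga6, 4 probes fell between -4.14 and -3.67, while A_55_P1958840 stood at 3.95, 3.74 and 3.74 in PSC WT and 3.50, 3.48 and 3.44 in control (0.34 ± 0.10, adjusted p = 0.019 over all probes). For Lamc1, the brightest probe had 0.26 and did not pass, while the other 3 passed when probes were tested singly. The intron-crossing probe printed above had 0.81, a second bright probe 0.31 and a dimmer probe -0.72 (adjusted p = 0.00144, 0.0381 and 0.016 over all probes). A second Itgb3 probe (-0.04) and 1 of the other Itga1 probes (-0.06) also had the opposite sign. Another, intron-crossing Itga1 probe had 0.93 ± 0.30 and passed (adjusted p = 0.0283 over all probes). A dimmer probe kept the direction but differed by over 1 on the log2 scale for Cd44, Ddr2, Itga11, Itga8, Itga9, Itgb4, Itgb6, Lama1, Lama2, Lama4 and Nid2.

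**Figure D2:**
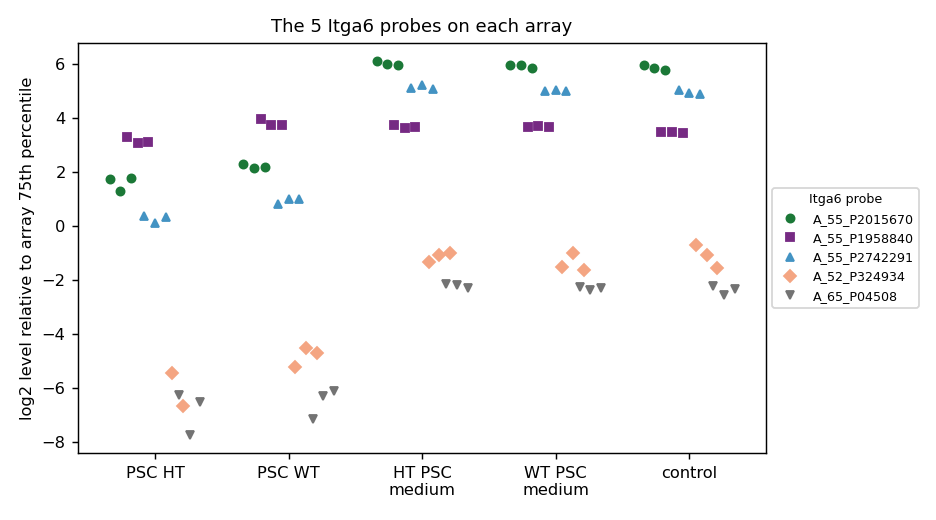
Level of the 5 Itga6 probes on each array (log2 relative to the array's 75th percentile) in the 5 groups, with 1 point per array; 1 reading of A_52_P324934 on PSC HT 1 was marked as an outlier by the scanner software and left out. The other 4 probes are lower in PSC than in cancer cells, and A_55_P1958840 lies between 3.06 and 3.95 in all groups.

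The comparison of PSC HT with PSC WT asks how the genotype of the stellate cells bears on these genes. Itgb8, Itga7, Itga10, Itga3 and Itgb3 were lower in PSC HT, and Lama4 was higher. Of 39 members tested, 6 passed (15.4%), 1 higher and 5 lower, beside 7.73% of all 20886 genes, 2.95% higher and 4.78% lower. The members' median difference was -0.05, and 0.00 over all genes. The groups did not overlap for 21 of the 39, beside 29.1% of all genes. Itga2, Itga4, Itgb6 and Lama3 were not tested, and Itga2b, Itgb7 and Lamb3 entered the test through 1 genotype alone.

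Among the chains that fell, Itgb8 was at -4.39, -4.26 and -4.31 in PSC HT, against -2.71, -3.07 and -3.19 in PSC WT (-1.33 ± 0.13, adjusted p = 0.00343). Its second probe, at -5.0, -5.91 and -6.72 in PSC HT and -5.27, -5.14 and -4.55 in PSC WT, overlapped between the groups. A dimmer Itgb8 probe, at -7.68, -3.03 and -6.92 in PSC HT and -7.25, -6.82 and -7.61 in PSC WT, was well above background on 1 PSC HT array alone. With the mean of all Itgb8 probes the difference was -0.12 (adjusted p = 0.868), and with normexp background correction it was -0.64 (adjusted p = 0.0202). Itga7 stood at 0.81, 1.19 and 1.25 in PSC HT, against 2.25, 2.50 and 2.35 in PSC WT (-1.28 ± 0.14, adjusted p = 0.00427). Its second probe lay at -3.36, -2.90 and -3.20 in PSC HT and -2.15, -1.68 and -1.91 in PSC WT, again without overlap. Itga10 stood at -0.94, -0.78 and -0.73 in PSC HT, against -0.15, 0.10 and 0.11 in PSC WT (-0.84 ± 0.11, adjusted p = 0.00797). Its second probe had -0.33 and did not pass. Itgb8, Itga7 and Itga10 passed in all 6 fits that leave out 1 array.

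Itga3 stood at 0.83, 0.94 and 1.09 in PSC HT, against 1.45, 1.70 and 1.68 in PSC WT (-0.66 ± 0.11, adjusted p = 0.0188), but its intron-crossing probe had -0.11 ± 0.11. Without PSC WT 2, PSC WT 3, PSC HT 1 or PSC HT 2 the adjusted p of Itga3 was 0.0811, 0.0872, 0.0512 and 0.0608. Itgb3 stood at 0.84, 0.46 and 0.53 in PSC HT, against 1.18, 1.29 and 1.28 in PSC WT (-0.64 ± 0.12, adjusted p = 0.0243). It passed in only 1 of the 6 fits that leave out an array, the one without PSC HT 1. Lama4 stood at 1.61, 1.69 and 1.79 in PSC HT, against 1.30, 1.39 and 1.30 in PSC WT (0.37 ± 0.08, adjusted p = 0.0411). It passed in 0 of those 6 fits, with adjusted p from 0.0591 to 0.159. The number of members that passed was 3 without PSC WT 2 or without PSC WT 3, and 4 without PSC HT 2 or without PSC HT 3. These counts are of members alone, without the share of all genes, so they show no change particular to the members.

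Each of the 2 array slides held arrays of both genotypes. Within slide 1 and slide 2 the differences were -1.64 and -1.13 for Itgb8, -1.22 and -1.24 for Itga7, and -0.68 and -0.89 for Itga10. They were -0.49 and -0.75 for Itga3, -0.50 and -0.83 for Itgb3, and 0.41 and 0.35 for Lama4. Each slide held 3 of the 6 PSC arrays. These genes were named for passing without overlap between the genotypes, so the same direction on both slides was set in advance. With slide as a block Lama4 no longer passed (adjusted p = 0.0646) and the other 5 did. With the mean of all probes of a gene, Itga10 (adjusted p = 0.0536), Itga3 (0.102) and Lama4 (0.261) did not pass, nor did Itgb8. With no filter on dim probes, Itga10 (0.0555), Itga3 (0.103), Itgb3 (0.12) and Lama4 (0.199) did not pass.

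**Figure D3:**
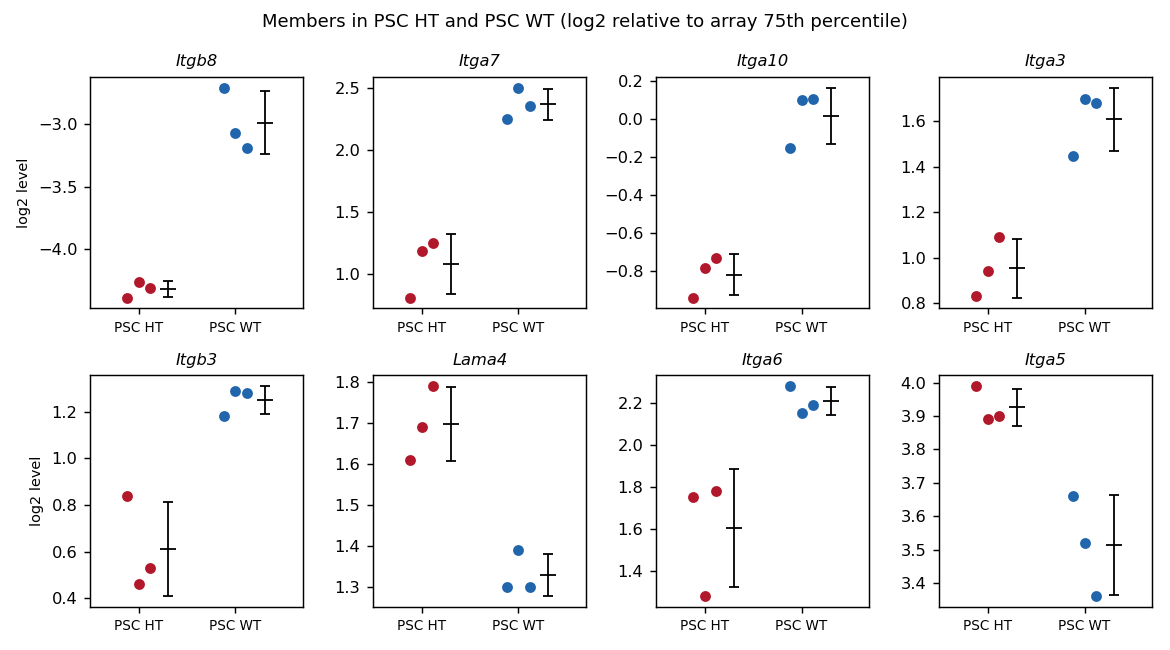
Level of 8 members in PSC HT (red, left) and PSC WT (blue, right) on each array (points; log2 relative to the array's 75th percentile), with mean and SD beside them. The groups do not overlap for any of the 8; Itga6 and Itga5 did not pass the threshold.

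Other laminin receptors and matrix genes had smaller or less certain differences. Itga6 stood at 1.75, 1.28 and 1.78 in PSC HT, against 2.28, 2.15 and 2.19 in PSC WT (-0.60 ± 0.15, adjusted p = 0.0636). When probes were tested singly, 2 other Itga6 probes passed, with -0.66 each. Itgb4 stood at -1.30, -1.15 and -0.88 in PSC HT and at -1.06, -0.98 and -1.07 in PSC WT (-0.07 ± 0.12, adjusted p = 0.795), with overlapping groups. Itga5 was at 3.99, 3.89 and 3.90 in PSC HT, against 3.66, 3.52 and 3.36 in PSC WT (0.41 ± 0.10, adjusted p = 0.0562), without overlap. Dag1 had -0.39 ± 0.09 (adjusted p = 0.0593).

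Itgb1 was at 6.95, 7.03 and 7.03 in PSC HT and at 7.04, 6.69 and 6.76 in PSC WT (0.17 ± 0.11, adjusted p = 0.42). Itgav was at 5.17, 4.99 and 5.09 in PSC HT and at 5.20, 4.98 and 5.03 in PSC WT (0.01 ± 0.09, 95% interval -0.21 to 0.24). Both had overlapping groups. Ddr1 was at 3.90, 3.75 and 3.96 in PSC HT, against 4.07, 4.08 and 4.01 in PSC WT (-0.18 ± 0.08, adjusted p = 0.257). Ddr2 was at 3.78, 3.76 and 3.81 in PSC HT, against 3.55, 3.70 and 3.61 in PSC WT (0.16 ± 0.07, adjusted p = 0.249). A second Ddr2 probe stood at 1.26, 1.14 and 1.08 in PSC HT, against 0.81, 0.73 and 0.81 in PSC WT, and passed when probes were tested singly (0.38 ± 0.08, adjusted p = 0.0422 over all probes). Cd44 was at 3.50, 3.22 and 3.23 in PSC HT, against 3.08, 2.70 and 2.68 in PSC WT (0.49 ± 0.14, adjusted p = 0.0955), without overlap. Sdc1 was at 2.03, 1.93 and 2.00 in PSC HT and at 1.77, 1.93 and 1.86 in PSC WT (0.13 ± 0.08, adjusted p = 0.387). None of these 6 passed by its brightest probe.

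Among basement membrane genes, the nidogen Nid2 had 0.69 ± 0.19 (adjusted p = 0.0911) and the laminin chain Lamc3 -0.63 ± 0.20 (adjusted p = 0.128). The brightest Lamc1 probe had -0.21 ± 0.09 and did not pass, while its intron-crossing probe stood at -0.22, -0.23 and -0.11 in PSC HT, against 0.42, 0.45 and 0.32 in PSC WT (-0.59 ± 0.08, adjusted p = 0.00957 over all probes). Lamb3 was at -4.77, -3.88 and -3.67 in PSC HT, against -5.40, -4.83 and -5.03 in PSC WT (0.98 ± 0.30, adjusted p = 0.119), and it passed without PSC HT 1 (1.31, adjusted p = 0.0212).

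Of 10 epithelial markers, 6 or 7 were well above background on every PSC array, and Cdh1, E-cadherin, on PSC HT 3 alone. Cdh1 read -2.45 there and -8.22 to -7.61 on the other 5 PSC arrays, and the summed epithelial level was 23.4 there, beside 6.42 on PSC HT 1, 7.16 on PSC HT 2 and 13.9 to 14.8 in PSC WT. The intron-crossing Lamb3 probe read -6.40, -5.52 and -3.22 in PSC HT and -6.59, -6.38 and -6.96 in PSC WT. Without PSC HT 3, Lamb3 had 0.76 ± 0.30 (adjusted p = 0.264) and Itgb4 -0.19 ± 0.09 (adjusted p = 0.365). Lama4 then had adjusted p = 0.124 and Itgb3 0.0797, while Itgb8, Itga7, Itga10 and Itga3 passed (adjusted p = 0.0167, 0.0114, 0.0246 and 0.0348).

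Markers of other cell types also differed between the genotypes. Of 11 macrophage markers, 9 were higher in PSC HT and 0 lower, with summed levels of 68.6 to 165 in PSC HT, against 18.9 to 30.5 in PSC WT. Of 5 endothelial markers tested, 4 were lower, with sums of 0.277 to 0.335 in PSC HT and 1.18 to 1.34 in PSC WT, and Cdh5, VE-cadherin, was not well above background in PSC HT. Of 6 mesothelial markers, 5 were lower, with sums of 10.5 to 17.1 in PSC HT and 38.8 to 48.0 in PSC WT. Of 5 Schwann cell markers tested, 1 was higher and 2 were lower. Of 11 stellate markers 1, Postn, was higher, with sums of 1470 to 1530 in PSC HT and 1200 to 1690 in PSC WT. Their part in the differences of Itgb8, Itga7, Itga10, Itga3, Itgb3 and Lama4 was not tested. Itga4, the leukocyte chain, read -2.94, -4.56 and -4.84 in PSC HT and -4.96, -5.92 and -6.48 in PSC WT, with 2 and 1 arrays well above background, and was not tested.

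Counts for genes that work with the members stand beside 2.95% of all genes higher and 4.78% lower in PSC HT. Of 31 genes of the integrin adhesion machinery tested, 0 were higher and 3 lower in PSC HT, namely the kinase Ptk2b (-0.50 ± 0.07), Kank3 (-0.48 ± 0.10) and the tetraspanin Cd82 (-0.40 ± 0.07). Of 15 hemidesmosome and dystroglycan partners, 0 passed in either direction. Of 25 ligands and heparan sulfate genes, 2 were higher and 4 lower. The integrin ligands Spp1, osteopontin, and Tnc, tenascin C, rose by 1.85 ± 0.41 and 0.85 ± 0.14. The basement membrane collagen chains Col4a6 and Col4a5 fell by 2.11 ± 0.09 and 0.41 ± 0.07, and the heparan sulfatases Sulf2 and Sulf1 by 0.57 ± 0.08 and 0.37 ± 0.08 on the log2 scale. The medians of the 3 lists were 0.10, 0.06 and 0.04.

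The cancer cells address whether medium from either kind of PSC moves these genes. In WT PSC medium, the epithelial laminin chain Lamb3 and Lamc3 were higher and Itgb7 was lower than in control. Of 32 members tested, 3 passed (9.38%), 2 higher and 1 lower, beside 5.95% of all 19687 genes, 2.80% higher and 3.15% lower. The members' median difference was 0.03, and 0.02 over all genes. In HT PSC medium, Lamb3 and Itgav were higher and Itgb7 was lower, again 3 of 32, beside 5.47% of all genes, 2.97% higher and 2.50% lower, and the medians were 0.10 for the members and 0.01 for all genes. Both comparisons use the same 3 control arrays, so they are not independent of each other. The groups did not overlap for 14 members with WT PSC medium and 12 with HT PSC medium, beside 25.3% and 24.4% of all genes. None of the differences that passed reached 2-fold. Without control 2, 1 member passed with WT PSC medium and 0 with HT PSC medium. With HT PSC medium 0 passed without HT PSC medium 3, and 1 without HT PSC medium 1 or without HT PSC medium 2. The counts with an array left out are of members alone, without the share of all genes. The 11 members not tested in cancer cells were Ddr2, Itga11, Itga2b, Itga4, Itga8, Itga9, Itgb8, Lama1, Lama2, Lama4 and Sdc2, and Nid2 entered through control alone.

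Lamb3 stood at 2.70, 2.73 and 2.78 in HT PSC medium, at 2.81, 2.73 and 2.86 in WT PSC medium and at 2.43, 2.16 and 2.17 in control. All 6 arrays in PSC medium lay above the 3 controls. The differences were 0.48 ± 0.08 (adjusted p = 0.0155) with HT PSC medium and 0.54 ± 0.08 (adjusted p = 0.00786) with WT PSC medium. The intron-crossing Lamb3 probe gave 0.48 ± 0.08 with HT PSC medium and 0.59 ± 0.08 with WT PSC medium. With WT PSC medium Lamb3 passed in all 9 fits that leave out an array, and with HT PSC medium in 5 of 9, with adjusted p up to 0.0619. The 4 fits in which it did not pass left out control 2 or 1 of the HT PSC medium arrays. Within slide 1 and slide 2 Lamb3 had 0.44 and 0.57 with HT PSC medium and 0.51 and 0.64 with WT PSC medium. Lamb3 was named for passing without overlap with control, so the same direction on both slides was set in advance.

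Itgb7 stood at -2.91, -2.92 and -2.92 in HT PSC medium, at -3.13, -2.87 and -2.77 in WT PSC medium and at -2.27, -2.31 and -2.52 in control. It had -0.55 ± 0.10 with HT PSC medium (adjusted p = 0.0203) and -0.56 ± 0.10 with WT PSC medium (adjusted p = 0.0164). All 6 arrays in PSC medium lay below the controls. Both calls were lost without control 1 (adjusted p = 0.0704 with HT PSC medium and 0.0623 with WT PSC medium) and without control 2 (0.0682 and 0.0561). With HT PSC medium the call was lost without any 1 of its arrays as well (0.0646 to 0.0745). Within slide 1 and slide 2 Itgb7 had -0.52 and -0.61 with HT PSC medium and -0.73 and -0.52 with WT PSC medium. Itgb7 too was named for passing without overlap with control, which set this direction in advance.

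Lamc3, a gamma chain of low level here, stood at -5.15, -4.69 and -4.59 in HT PSC medium, at -4.55, -4.52 and -4.44 in WT PSC medium and at -5.18, -5.31 and -5.18 in control. It had 0.42 ± 0.13 with HT PSC medium (adjusted p = 0.124) and 0.72 ± 0.13 with WT PSC medium (adjusted p = 0.017). The WT PSC medium call was lost without control 1 (0.0506), control 2 (0.0583) or any 1 WT PSC medium array (0.0525 to 0.0772). Itgav stood at 4.84, 4.77 and 4.70 in HT PSC medium, at 4.69, 4.79 and 4.66 in WT PSC medium and at 4.48, 4.52 and 4.31 in control. It had 0.33 ± 0.08 with HT PSC medium (adjusted p = 0.0477), which passed in 0 of 9 fits that leave out an array, and 0.27 ± 0.08 with WT PSC medium (adjusted p = 0.0867). With no filter on dim probes, Lamb3 with WT PSC medium was the single call left in either medium. In 1 fit of all 15 arrays, Lamb3 had adjusted p = 0.323 with HT PSC medium and 0.246 with WT PSC medium, and Itgb7 0.157 and 0.141. Lamc3 had 0.28 with WT PSC medium after normexp background correction (adjusted p = 0.0393).

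Lama3, an epithelial laminin chain like Lamb3, had -0.02 ± 0.08 with HT PSC medium and -0.16 ± 0.08 with WT PSC medium. Sdc3 had 0.19 ± 0.06 with HT PSC medium (adjusted p = 0.117) and 0.24 ± 0.06 with WT PSC medium (adjusted p = 0.0521).

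**Figure D4:**
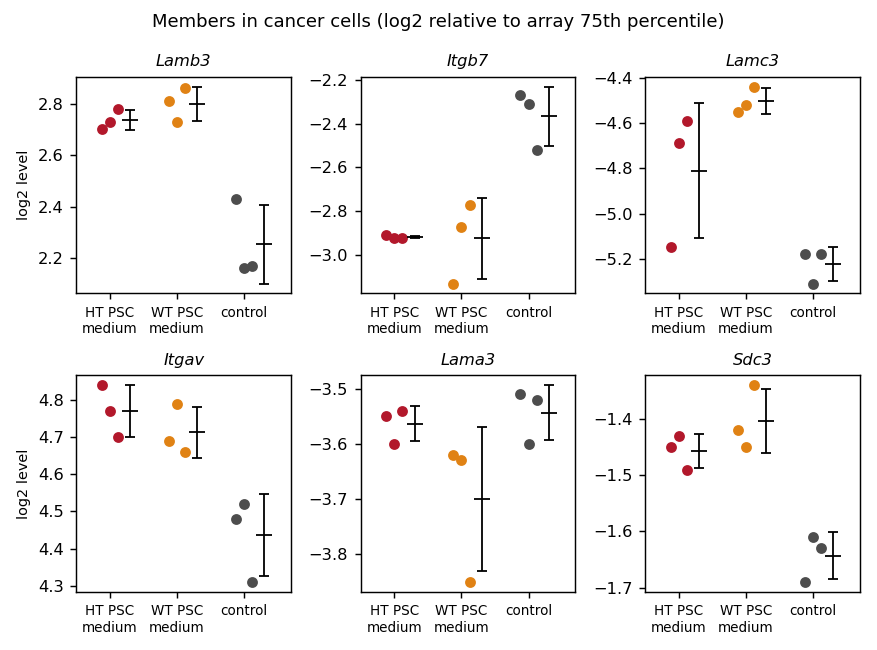
Level of 6 members in cancer cells in HT PSC medium (red), WT PSC medium (orange) and control medium (grey), with 1 point per array (log2 relative to the array's 75th percentile) and the mean and SD beside them. Lamb3 lies at 2.70 to 2.86 in both PSC media and at 2.16 to 2.43 in control, and Itgb7 lies below control in both.

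The remaining chains in the cancer cells did not pass. Itga6 stood at 6.10, 5.99 and 5.98 in HT PSC medium, at 5.95, 5.98 and 5.86 in WT PSC medium and at 5.98, 5.85 and 5.79 in control, with differences of 0.15 ± 0.07 for HT PSC medium and 0.06 ± 0.07 for WT PSC medium. Itgb4 stood at 3.22, 3.21 and 3.21 in HT PSC medium, at 3.17, 3.15 and 3.18 in WT PSC medium and at 3.42, 3.33 and 3.12 in control, with -0.08 ± 0.08 for HT PSC medium and -0.13 ± 0.08 for WT PSC medium. Only Itga6 in HT PSC medium did not overlap control. Itgb1 stood at 5.09, 4.99 and 5.0 in HT PSC medium, at 5.01, 5.01 and 5.06 in WT PSC medium and at 4.99, 4.97 and 4.81 in control, with 0.11 ± 0.07 for HT PSC medium and 0.11 ± 0.07 for WT PSC medium. Itga5 stood at -1.48, -1.37 and -1.43 in HT PSC medium, at -1.55, -1.48 and -1.40 in WT PSC medium and at -1.46, -1.79 and -1.85 in control, with 0.27 ± 0.10 for HT PSC medium and 0.22 ± 0.10 for WT PSC medium. Itgb1 did not overlap control in either medium, and Itga5 overlapped it in both.

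Cd44 stood at 3.48, 3.41 and 3.49 in HT PSC medium, at 3.48, 3.48 and 3.40 in WT PSC medium and at 3.72, 3.36 and 3.34 in control, with -0.01 ± 0.10 for HT PSC medium and -0.02 ± 0.10 for WT PSC medium. Ddr1 stood at 3.15, 2.90 and 3.12 in HT PSC medium, at 3.04, 3.02 and 3.12 in WT PSC medium and at 3.02, 2.80 and 2.78 in control, with 0.20 ± 0.09 for HT PSC medium and 0.20 ± 0.09 for WT PSC medium. Sdc1 stood at 3.22, 3.15 and 3.20 in HT PSC medium, at 3.20, 3.13 and 3.31 in WT PSC medium and at 3.21, 3.02 and 3.04 in control, with 0.10 ± 0.08 for HT PSC medium and 0.12 ± 0.08 for WT PSC medium. These 3 receptors did not pass in either medium.

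Of 33 genes of the adhesion machinery tested in cancer cells, 1 rose with HT PSC medium, the actin crosslinker Actn1 (0.33 ± 0.08), and 2 rose with WT PSC medium, the kindlin Fermt2 (0.51 ± 0.10) and Parvb (0.45 ± 0.10). Of 14 hemidesmosome and dystroglycan partners, 2 rose with HT PSC medium, the sarcoglycan Sgcb (0.58 ± 0.08) and Pomt2 (0.56 ± 0.13), and 1 with WT PSC medium, Sgcb (0.57 ± 0.08). Of 20 ligands and heparan sulfate genes, 3 rose with HT PSC medium, the hyaluronan synthase Has2 (0.84 ± 0.19), the sulfotransferase Hs6st2 (0.42 ± 0.08) and the glypican Gpc1 (0.51 ± 0.08). With WT PSC medium 2 of them rose, Hs6st2 (0.44 ± 0.08) and Gpc1 (0.49 ± 0.08). None of the 3 lists had a gene that fell. Over all genes tested, 2.97% rose and 2.5% fell with HT PSC medium. With WT PSC medium 2.8% rose and 3.15% fell. Of 9 epithelial markers tested, Krt7 and Cldn4 were higher in both media, and of 6 macrophage markers Cd68 was. S100b, 1 of 3 Schwann cell markers, was lower with WT PSC medium, and 0 of 4 stellate, 0 of 2 endothelial and 0 of 1 mesothelial markers passed. Their part in the members' differences was not tested.

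Between HT PSC medium and WT PSC medium no member passed, 0 of 32, as did 0 of all 19687 genes (0%). With limma's unadjusted p, 0 of the 32 members and 4.87% of all genes were under 0.05. The differences ran from -0.30 for Lamc3 to 0.25 for Nid2, with the smallest adjusted p at 0.984. For 28 of the 32 members the 95% interval lay within 0.5 on either side of 0 on the log2 scale. Lamc3 passed with WT PSC medium and not with HT PSC medium, and its difference between the media had an interval of -0.61 to 0.00. Itgav, which passed with HT PSC medium alone, differed by 0.06 (interval -0.12 to 0.24). The groups did not overlap for 8 of the 32, beside 11.5% of all genes.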

How the data were processed

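Total RNA of the 15 samples was labelled with Cy3 and hybridised to Agilent arrays, 1 colour per array. Per the file headers, the deposited intensity values came from Agilent Feature Extraction 10.7.3.1, background subtracted and detrended within an array and not scaled between arrays. A series matrix was deposited too, in log2 units. How it was made is not given in the sources used here, and it served as an alternative within a cell type.

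Log2 intensities were set relative to the 75th percentile of each array (913 to 1449 signal units), and outlier spots and controls were left out. The brightest probe over the 15 arrays stood for a gene. RefSeq named 32924 probes through their accession, 10190 through their symbol and 520 through a synonym, and 12867 kept the file's name. Coordinates are those of the files (mm9). Promoters come from RefSeq, GRCm38.p6.

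The limma package (3.58.1, R 4.3.3) gave differences by lmFit and eBayes, in separate fits for the 6 PSC arrays, the 9 cancer cell arrays and PSC WT with control, with Benjamini-Hochberg adjustment at 0.05. Members, marker lists and pathway lists were chosen with earlier results of these data known. Array values are given for members past the threshold without overlap (up to 8 each way) and in any case for Itgb1, Itgb4, Itga6, Itga5, Itgav, Lamb3, Cd44, Ddr1, Ddr2 and Sdc1, and members whose probes disagree are named. One member enters the counts and is not reported here on its own. The procedure was tested on simulated data.

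Replicate numbers are shared between groups. Deviations of same-numbered arrays correlated at 0.211, 0.256 and 0.227 for WT PSC medium and control, so the numbers were taken to pair those arrays. The remaining pairs of groups did not all reach 0.1. Alternatives changed the threshold, the arrays included, the variance model, a block for replicate or slide, the probes, the filter, the scaling and the background correction (normexp, offset 50). The arrays lay on 2 slides, each with arrays of all 5 groups. Precision is limited by the 3 arrays per group. Figures and counts were made in Python 3.11.15 with matplotlib 3.10.9, pandas 2.3.3 and numpy 2.4.6, and files were read in R with the package data.table (version 1.17.8).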

Additional observations from a re-analysis of the deposited data

How the results depend on the processing

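The members that passed changed in number with the fit. The counts below are of members alone, without the share of all genes, so they show no change particular to the members. For PSC HT against PSC WT, 6 became 2 with no filter on dim probes, 2 with the mean of all probes of a gene, 12 with all 15 arrays in 1 fit, 11 with a trend in the variance, 3 at an adjusted p under 0.01, and 0 within slide 1 and 0 within slide 2. Leaving out 1 array gave 3 to 6. For WT PSC medium against control, 3 became 1 with no filter, 5 with a trend, 1 at the 0.01 threshold and 0 within each slide, and leaving out 1 array gave 1 to 3. For HT PSC medium against control, 3 became 0 with no filter, 1 with the mean of all probes, 1 with all arrays in 1 fit, 5 with a trend, 0 at the 0.01 threshold and 0 within each slide, and leaving out 1 array gave 0 to 3. For PSC WT against control, 38 became 24 when all arrays had to be well above background, and leaving out 1 array gave 38 to 40. HT against WT PSC medium had 0 under every alternative run. Within a slide a group can hold 1 array, which is then assumed to vary like the others. Fewer arrays entered the fits within a slide, and fewer genes were tested under the stricter filter. The cause of these changes was not tested.

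With the replicate number as a block, the PSC genotypes gave 6, WT PSC medium 3, HT PSC medium 2, the 2 media against each other 0 and the cell types 38. For WT PSC medium and control, whose numbers were taken to pair, Lamb3, Itgb7 and Lamc3 passed with the block too. The labels state no pairing, and the main fit used none. For other groups the numbers were not taken to pair samples. For the PSC genotypes the block ended the calls of Lama4 (adjusted p = 0.111) and Itgb3 (0.0722) and added 2 members, Lamb3 (0.0457) among them, and for HT PSC medium it ended that of Itgb7 (0.0516).

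Differences near 0 that did not pass changed sign. For the PSC genotypes Itgav had -0.019 with quantile normalization, -0.042 with slide as a block, -0.012 with the series matrix values, -0.066 within slide 1, -0.019 within slide 2 and -0.031 to 0.079 without 1 array. Itgb4 had 0.201 with the mean of all probes and -0.191 to 0.022 without 1 array, and within slide 1 Itgb1 had -0.051. Cd44 had 0.047 with HT PSC medium and 0.031 with WT PSC medium under median scaling, 0.051 with HT PSC medium over the mean of all probes, 0.011 with WT PSC medium and slide as a block, and 0.049 with HT PSC medium and 0.079 with WT PSC medium within slide 2. Leaving out 1 array gave Cd44 -0.079 to 0.109 with HT PSC medium and -0.086 to 0.101 with WT PSC medium. The cause was not tested.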
